A study of Mus musculus with 4 samples.

Results

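The genes described here are 42 genes of DNA replication and mitosis chosen by name as genes with known roles in copying and separating chromosomes. They are 42 of 17532 genes listed for sorted mouse periosteal macrophages, and all 42 had reads in each of the 4 libraries. The cells came from the periosteum, the membrane that covers bone, of wild type male C57BL/6 mice at postnatal day 28. They were sorted with antibodies to CD45, CX3CR1 and either ACE or CD74, giving CX3CR1+ACE+ and CX3CR1+CD74+ cells. Every group was then cultured for 24 h in DMEM with 10% FBS, 1% penicillin and streptomycin and 10 ng/ml M-CSF, a growth factor for macrophages. The treated groups also received recombinant mouse periostin (rmPostn) at 500 ng/ml, and the vehicle groups received PBS. Each of the 4 groups is 1 library, so no comparison below has replicates, and the sources used here do not say whether animals were pooled. Periostin is a matricellular protein of the periosteum, and the comparisons ask how it and the sorted subset bear on the level of these genes.

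Before a cell divides, CDC6 and CDT1 load the MCM2-7 helicase onto origins of replication, and CDC45 and the GINS complex turn it into an active helicase. PCNA then clamps DNA polymerases to the template while ribonucleotide reductase and thymidylate enzymes supply nucleotides. E2F factors and cyclin E drive the entry into this phase, and cyclin A and cyclin B with CDK1, helped by Polo and Aurora kinases, drive the entry into mitosis. Kinetochore and checkpoint proteins hold back the anaphase promoting complex until chromosomes are attached, after which kinesins and PRC1 organise the spindle midzone and the division of the cell. Many tissue macrophages can divide locally, and M-CSF is a mitogen for them.

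The promoters of such genes are known for 3 short motifs: E2F sites in replication genes, and in mitosis genes the cell cycle genes homology region (CHR) together with CCAAT boxes, which NF-Y binds. RefSeq promoter windows on GRCm38.p6, from 250 bases before to 50 bases after the start of the gene, were at hand for 35 of the 42 genes. All 35 lie on the strand of the GENCODE gene, and 31 have their start within 200 bases of the GENCODE start. The letters searched were TTTCCCGC, TTTGGCGC, TTTCGCGC or TTTGCCGC for E2F, TTTGAA or TTCGAA for the CHR and CCAAT for the CCAAT box, each on both strands. An E2F match was found in 6 of 15 windows of replication genes (40%) and 1 of 18 windows of mitosis genes (5.56%), against 2.26% of 32851 windows of all genes. A CHR match and a CCAAT match in the same window were found in 14 of 18 mitosis genes (77.8%) and 3 of 15 replication genes (20%), against 7.52% of all windows. Matches of different motifs overlapped in the windows of 2 genes, Cdca8 and Mcm7. A match describes letters and is not a measured binding site.

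The 8 stretches below run from 160 bases before to 20 bases after the RefSeq start, with the matched letters in capitals. Mcm6 and Mcm5 show overlapping E2F letters beside CCAAT boxes, Cdc6 and Ttk had the largest increases with periostin in CD74+ cells, Bub1 and Kif11 the largest decreases, Cdc20 shows a CHR between CCAAT boxes, and Mki67 had the largest increase from ACE+ to CD74+ cells with vehicle.
Mcm6, chr1:128359686-128359865, minus strand: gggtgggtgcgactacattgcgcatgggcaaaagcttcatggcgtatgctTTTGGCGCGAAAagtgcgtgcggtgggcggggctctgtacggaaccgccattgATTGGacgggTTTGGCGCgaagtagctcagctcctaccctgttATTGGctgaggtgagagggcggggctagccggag
Mcm5, chr8:75109349-75109528, plus strand: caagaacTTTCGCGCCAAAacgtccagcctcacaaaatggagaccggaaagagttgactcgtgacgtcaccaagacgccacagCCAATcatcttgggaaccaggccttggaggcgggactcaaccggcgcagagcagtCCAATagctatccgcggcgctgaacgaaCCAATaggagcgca
Cdc6, chr11:98907991-98908170, plus strand: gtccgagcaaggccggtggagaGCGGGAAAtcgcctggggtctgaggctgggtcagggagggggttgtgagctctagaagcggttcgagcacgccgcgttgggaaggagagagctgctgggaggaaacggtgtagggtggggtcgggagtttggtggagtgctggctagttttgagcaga
Ttk, chr9:83834529-83834708, plus strand: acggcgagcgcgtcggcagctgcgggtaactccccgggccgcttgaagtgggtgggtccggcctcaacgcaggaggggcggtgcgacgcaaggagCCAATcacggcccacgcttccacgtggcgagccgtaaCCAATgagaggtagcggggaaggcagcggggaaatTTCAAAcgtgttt
Bub1, chr2:127831840-127832019, minus strand: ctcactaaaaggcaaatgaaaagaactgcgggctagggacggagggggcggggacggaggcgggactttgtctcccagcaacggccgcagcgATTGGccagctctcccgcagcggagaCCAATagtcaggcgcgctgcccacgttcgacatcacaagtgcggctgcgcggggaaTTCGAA
Kif11, chr19:37376222-37376401, plus strand: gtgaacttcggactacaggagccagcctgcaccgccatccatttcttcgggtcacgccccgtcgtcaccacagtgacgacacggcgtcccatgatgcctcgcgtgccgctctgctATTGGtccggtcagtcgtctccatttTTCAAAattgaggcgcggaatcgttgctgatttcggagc
Cdc20, chr4:118437324-118437503, minus strand: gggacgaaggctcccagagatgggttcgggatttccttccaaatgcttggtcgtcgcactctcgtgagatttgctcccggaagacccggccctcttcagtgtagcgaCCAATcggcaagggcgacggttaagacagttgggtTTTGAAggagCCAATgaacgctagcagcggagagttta
Mki67, chr7:135716360-135716539, minus strand: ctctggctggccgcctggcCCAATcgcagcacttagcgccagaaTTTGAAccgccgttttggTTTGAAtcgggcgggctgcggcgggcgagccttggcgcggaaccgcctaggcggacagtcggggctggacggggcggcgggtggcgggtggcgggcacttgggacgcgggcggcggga
Ttk and Bub1, whose levels went in opposite directions with periostin in CD74+ cells, both hold a CHR match and 2 CCAAT matches in these stretches. The RefSeq start of Cdc6 lies 350 bases from its GENCODE start, so its stretch is less certain than those of the other 7 genes.

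Levels are given as CPM, the reads of a gene per 1000000 on a scale common to the 4 libraries. In listed genes the ACE+ libraries held 15471245 reads with vehicle and 19798150 with periostin, and the CD74+ libraries 16650349 and 11846312, and 1 read is worth 0.0491 to 0.0897 CPM. Where 4 levels are given in a row, they follow this order: ACE+ cells with vehicle and with periostin, then CD74+ cells with vehicle and with periostin. Summed over the 42 genes, the level was 1103, 1138, 1503 and 1448 CPM. These sums are 0.114%, 0.117%, 0.151% and 0.136% of each library's reads. Both CD74+ libraries thus had higher sums than both ACE+ libraries, and within a subset the vehicle and periostin sums lay closer together. The deepest counted genes were Pcna and Mki67, which together made up 19.6%, 19.5%, 29.8% and 28.4% of the summed level. The sparsest was Tk1, with 9 and 4 reads in the CD74+ vehicle and CD74+ periostin libraries. In bulk RNA, fewer dividing cells and less RNA of these genes per cell cannot be told apart.

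The libraries were not pure by their markers. All 10 macrophage markers had reads in every library, with sums of 7171 to 8628 CPM. Lyz2 alone stood at 4386 to 6004 CPM, and Csf1r and Cd68 at 257 to 1327 CPM. Adgre1, Mertk, Fcgr1 and C1qa were low, at 2.45 to 54.5 CPM. Cx3cr1, used in the sort of both subsets, stood at 14.5 to 21.7 CPM. Neutrophil and granulocyte progenitor markers, led by S100a8 and S100a9, summed to 20118 and 24690 CPM in the ACE+ libraries and to 11012 and 17975 CPM in the CD74+ libraries. B lineage markers summed to 614 and 502 CPM in ACE+ cells against 23.4 and 19.02 CPM in CD74+ cells, where Pax5, Ebf1, Rag1 and Igll1 were not listed. Erythroid markers summed to 1464 and 1716 CPM in ACE+ cells and to 286 and 492 CPM in CD74+ cells. Chondrocyte markers were lowest in ACE+ vehicle at 206 CPM and stood at 717, 1092 and 949 CPM in the others. Osteoblast and fibroblast markers summed to 1046 and 843 CPM in ACE+ cells and to 342 and 308 CPM in CD74+ cells. Of the sort markers, Cd74 stood at 531 and 552 CPM in ACE+ cells and at 850 and 1222 CPM in CD74+ cells, whereas Ace was lowest in CD74+ vehicle (0.897 CPM) and highest in CD74+ periostin (9.51 CPM), above both ACE+ libraries (2.76 and 2.80 CPM). Progenitors of the granulocyte, erythroid and B lineages divide too, and the part of such cells in the results was not tested.

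**Figure D1:**
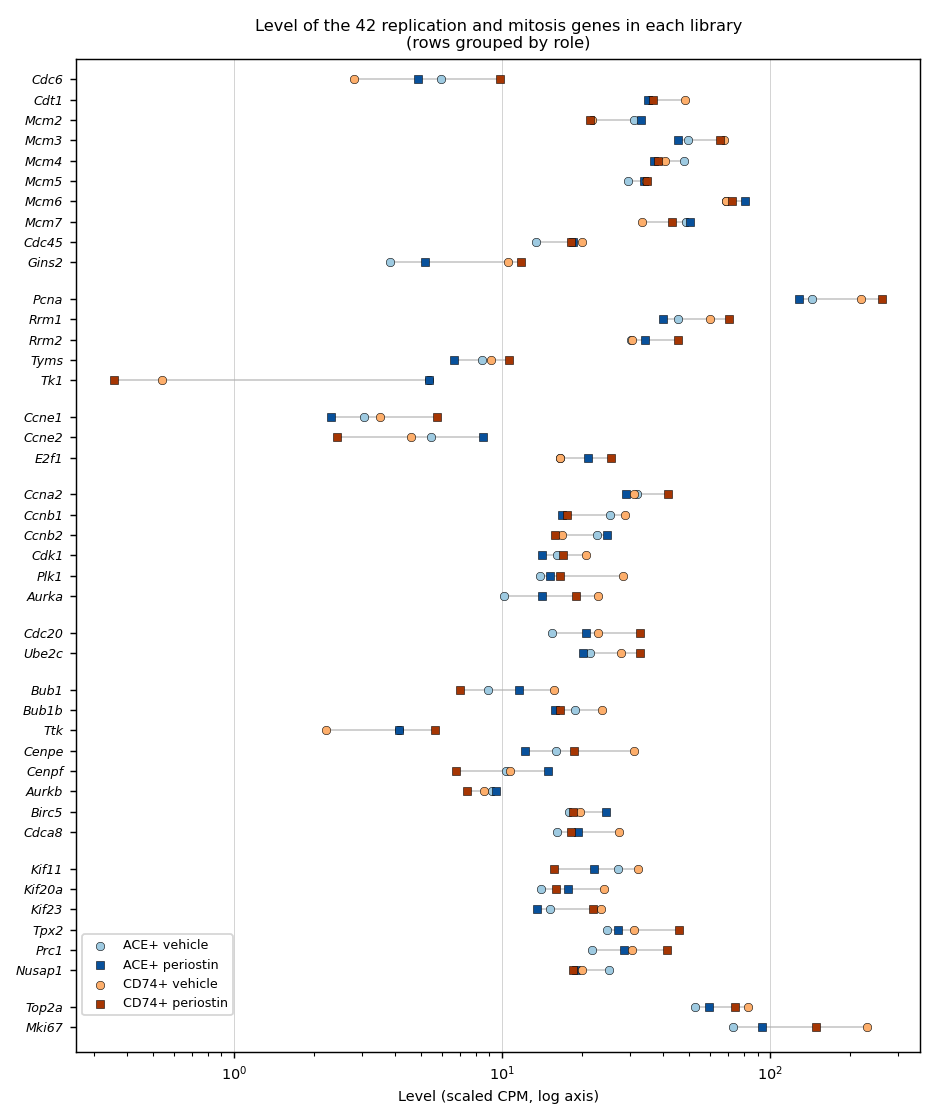
Level of each of the 42 genes in the 4 libraries, in CPM on a log axis, with rows grouped by role from licensing at the top to Top2a and Mki67 at the bottom; circles are vehicle and squares periostin libraries, blue ACE+ and orange CD74+ cells. Most genes lie between 10 and 100 CPM with their 4 points close together, Pcna reaches 262 CPM, and Tk1 is the row where both CD74+ points (0.538 and 0.359 CPM) stand far below both ACE+ points (5.33 and 5.35 CPM).

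Among the licensing genes the 6 subunits of the MCM2-7 helicase, which act as 1 ring, were detected at 21.4 to 80.6 CPM. Per length, on the authors' gene lengths, the highest subunit exceeded the lowest 1.69-fold in ACE+ vehicle, 1.77-fold in ACE+ periostin, 2.78-fold in CD74+ vehicle and 2.73-fold in CD74+ periostin. Mcm6 was the highest subunit in both ACE+ libraries, at 14.7 and 17.3 CPM per kb. Mcm3 was the highest in both CD74+ libraries, at 17.96 and 17.3 CPM per kb. Mcm2 was the lowest in CD74+ cells, at 6.46 and 6.34 CPM per kb, and in ACE+ periostin at 9.78 CPM per kb, while Mcm5 was the lowest in ACE+ vehicle at 8.67 CPM per kb. Mcm3 stood higher and Mcm2 lower in CD74+ than in ACE+ cells under either treatment, while with periostin the highest subunit had the same level in both subsets (17.3 CPM per kb). None of the 6 subunits changed 2-fold in any of the 4 comparisons. Of the exons of Mcm7, 12.6% also lie in another gene. The authors' length of Mcm2 is 3370 bases, against 6956 bases of exon in GENCODE M21, and that of Mcm5 is 3422 against 3993. The other subunits have the same length in both. Which subunit is lowest, and how far the highest exceeds it, thus depend on the lengths used.

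**Figure D2:**
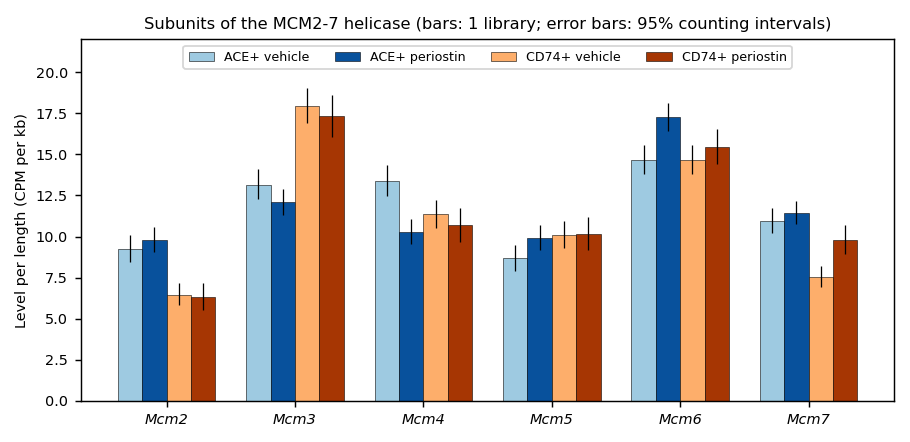
Level per length of Mcm2 to Mcm7, in CPM per kb of the authors' gene length, in the 4 libraries (bars, 1 library each) with exact 95% counting intervals (error bars). Mcm3 is highest in the CD74+ libraries (17.96 and 17.3 CPM per kb) and Mcm6 in the ACE+ libraries (14.7 and 17.3 CPM per kb), and Mcm2 is lower in CD74+ (6.46 and 6.34 CPM per kb) than in ACE+ cells (9.25 and 9.78 CPM per kb).

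Pcna had the highest level per length of all 42 genes in every library, at 59.7, 53.5, 91.0 and 109 CPM per kb, in the order of libraries used above. The median gene stood at 5.47, 5.68, 6.65 and 6.38 CPM per kb. Reads of Pcna can be shared with the named pseudogenes Pcna-ps1 and Pcna-ps2, and Ccnb1, Ccnb2 and Tyms also have named pseudogenes.

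The first comparison asks what 24 h of periostin did in CX3CR1+ACE+ cells. No gene of the 42 rose or fell at least 2-fold, on the scale of log2(CPM + 1), which understates the change of low genes. Over all 14734 genes that reached 1 CPM in either library, 1.47% rose and 1.3% fell 2-fold, so a count of 0 among 42 does not stand apart. The level was higher with periostin in 24 genes and lower in 18, with a median log2 change of 0.07 against 0.00 over all genes tested. The summed level of the 18 replication genes (licensing, fork and nucleotide supply, G1/S) was 592 CPM with vehicle and 590 CPM with periostin. That of the 22 mitosis genes was 386 and 394 CPM.

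The changes in ACE+ cells that exceeded counting error were small and mixed in role. An exact 95% interval of the ratio, which covers counting error only, lay above 1 for 16 genes and below 1 for 8 of the 42. Over all 14734 genes tested the interval lay above 1 for 25.3% and below 1 for 25.3%, so such intervals were common in this pair of libraries. Ccnb1, the cyclin that carries CDK1 into mitosis, had the largest decrease, from 25.4 CPM to 16.8 CPM (0.662-fold, 0.572 to 0.767). Nusap1, a spindle protein, went from 25.2 to 18.9 CPM (0.749-fold, 0.650 to 0.864). Mcm4, of the helicase, went from 48.05 to 36.9 CPM (0.768-fold, 0.693 to 0.850). The decreases thus held genes of both replication and mitosis. For Cenpe, a kinetochore motor, the levels were 15.9 and 12.2 CPM (0.767-fold, 0.641 to 0.917), and for Tyms, thymidylate synthase, 8.47 and 6.62 CPM, with an interval that just held 1 (0.782-fold, 0.612 to 1.00).

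The largest increases in ACE+ cells were of similar size. Ccne2, a cyclin E gene, went from 5.46 to 8.54 CPM (1.56-fold, 1.20 to 2.05), with 17.4% of its exons also in another gene. Cenpf, a kinetochore protein, went from 10.4 to 14.9 CPM (1.43-fold, 1.18 to 1.74). Birc5, which encodes survivin of the chromosomal passenger complex, went from 17.9 to 24.5 CPM (1.37-fold, 1.18 to 1.59). Replication and mitosis were again both present among the increases. Cdc45 went from 13.4 to 18.4 CPM (1.37-fold, 1.16 to 1.63), and Aurka, the centrosomal Aurora kinase, from 10.2 to 14.1 CPM (1.38-fold, 1.13 to 1.68). In the same pair of libraries the chondrocyte marker sum was 206 CPM with vehicle and 717 CPM with periostin, with 6 of the 9 markers that passed the filter at least 2-fold higher, and the neutrophil sum also differed (20118 against 24690 CPM), and the part of these cells was not tested.

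In CX3CR1+CD74+ cells, periostin was accompanied by larger changes. Cdc6, the licensing factor, and Ttk, the checkpoint kinase MPS1, rose, and Bub1, another checkpoint kinase, fell. These are 2 higher and 1 lower of the 41 genes that passed the filter, which Tk1 did not. Over all 13865 genes tested, 6.69% rose and 5.25% fell 2-fold, so both counts lie below the share in all genes. With 5 CPM added in place of 1, none of the 3 stayed past 2-fold. The median log2 change of the 41 genes was -0.08 against 0.02 over all genes, with 17 genes higher and 24 lower.

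Cdc6 stood at 5.96, 4.86, 2.81 and 9.87 CPM, in the order of libraries used above. The CD74+ vehicle library was the lowest of the 4 and the CD74+ periostin library the highest, on 47 and 110 reads, a ratio of 3.51 (2.47 to 5.05). Cdc6 lies on chromosome 11 from 98907801 to 98923940, plus strand, in GENCODE M21 on GRCm38. Ttk followed the same order, with 4.14, 4.12, 2.21 and 5.65 CPM and a ratio of 2.55 (1.68 to 3.94) in CD74+ cells. Its gene spans 83834689 to 83872389 on the plus strand of chromosome 9. Both genes were low, and the CD74+ vehicle library was itself below both ACE+ libraries.

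Bub1 stood at 8.91, 11.6, 15.7 and 6.997 CPM in the same order of libraries. Here CD74+ vehicle was the highest library and CD74+ periostin the lowest, a ratio of 0.445 (0.341 to 0.575), while in ACE+ cells the ratio was 1.30 (1.05 to 1.61). The gene lies on the minus strand of chromosome 2 from 127801122 to 127831865. Kif11, the kinesin that pushes spindle poles apart, lay just outside the call, with a log2 change of -0.998 against the limit of -1. Its levels were 27.2, 22.03, 32.2 and 15.6 CPM, and its ratio in CD74+ cells was 0.485 (0.407 to 0.577). In both subsets Kif11 was thus lower with periostin.

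By role, the CD74+ response was split. Of the replication genes, 11 of the 17 that passed were higher with periostin, with a median log2 change of 0.16. Of the mitosis genes, 16 of 22 were lower, with a median of -0.22. Over all 13865 genes tested, 51.4% were higher, with a median of 0.02. The replication sum was 691 CPM with vehicle and 774 CPM with periostin, a ratio of 1.12 (1.09 to 1.15), and the mitosis sum 499 and 450 CPM, a ratio of 0.902 (0.871 to 0.934). The direction held for the replication sum without Pcna, at 473 and 512 CPM. In ACE+ cells the same ratios were 0.996 (0.970 to 1.02) and 1.02 (0.988 to 1.06). Genes of the same processes outside the 42 did not show the split: 21 of 44 other replication genes and 32 of 66 other mitosis genes were higher, with medians of -0.02 in both lists.

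Among the replication genes other than Cdc6, several of nucleotide supply and G1/S were higher with periostin. Rrm2, the small subunit of ribonucleotide reductase, went from 30.6 to 45.6 CPM (1.49-fold, 1.32 to 1.69). E2f1 went from 16.5 to 25.5 CPM (1.54-fold, 1.30 to 1.83) and Ccne1, a cyclin E gene, from 3.53 to 5.74 CPM (1.63-fold, 1.12 to 2.36). Ccne2, the other cyclin E gene, went the other way, from 4.60 to 2.42 CPM (0.526-fold, 0.326 to 0.825). The 2 cyclin E genes thus had opposite changes with periostin in both subsets, although in ACE+ cells the interval for Ccne1 held 1 (0.750-fold, 0.492 to 1.14). All 4 measured genes of the fork and nucleotide group were higher, their sum going from 319 to 389 CPM, while the 10 licensing genes divided into 5 higher and 5 lower and summed to 348 and 351 CPM.

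Among the mitosis genes, 7 of the 8 kinetochore, passenger complex and checkpoint genes were lower with periostin in CD74+ cells, the exception being Ttk. Their sum went from 139 CPM to 98.5 CPM. Cenpe went from 31.2 to 18.6 CPM (0.595-fold, 0.504 to 0.700). Plk1, the Polo kinase of mitotic entry, went from 28.2 to 16.5 CPM (0.585-fold, 0.491 to 0.695), and Ccnb1 from 28.9 to 17.5 CPM (0.606-fold, 0.510 to 0.717). Not all mitosis genes went that way. Cdc20 and Ube2c, which act with the anaphase promoting complex, were both higher, at 22.9 against 32.8 CPM and 27.8 against 32.7 CPM. Tpx2 and Prc1, both of the spindle, were higher too, with ratios of 1.47 (1.30 to 1.67) and 1.35 (1.19 to 1.54). Ccna2, the cyclin A gene of the mitotic entry group, went from 31.2 to 41.7 CPM (1.34-fold, 1.18 to 1.52). Mki67, the marker of cycling cells, went from 229.6 to 149 CPM in CD74+ cells (0.650-fold, 0.613 to 0.688), against 72.7 and 93.9 CPM in ACE+ cells (1.29-fold, 1.20 to 1.39).

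Across all genes, the change in CD74+ cells was lower for longer genes (Spearman's rho -0.32 over 13865 genes), whereas over the 41 genes rho was -0.13. The points of each rho share the same pair of libraries. In these libraries the neutrophil sum was 11012 CPM with vehicle and 17975 CPM with periostin, and the erythroid sum 286 and 492 CPM. Of the 10 macrophage markers, 4 were higher and 6 lower with periostin, with C1qa at least 2-fold higher (14.6 and 36.9 CPM) and Mertk at least 2-fold lower (14.5 and 3.77 CPM). The part of these in the split by role was not tested.

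**Figure D3:**
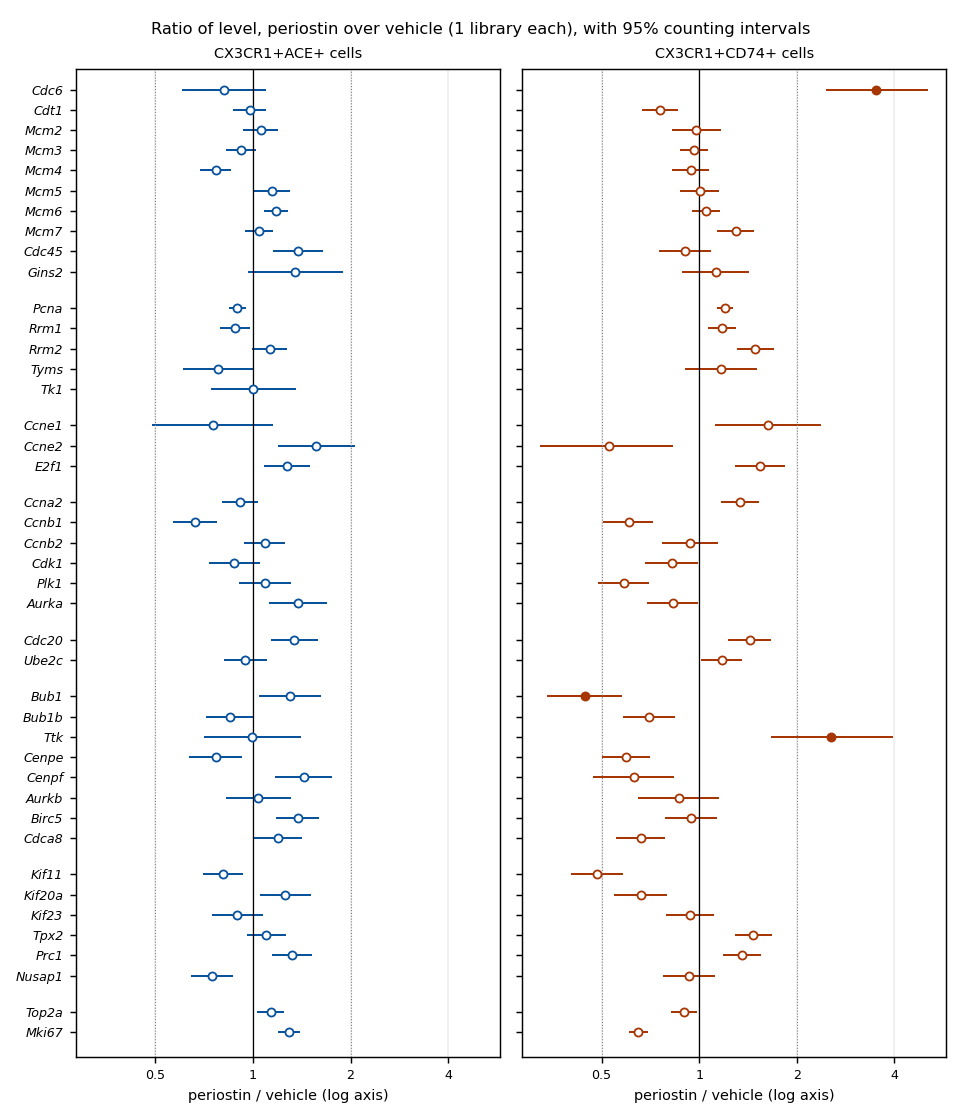
Ratio of level with periostin over vehicle for each gene, on a log axis, in ACE+ (left) and CD74+ cells (right); points are ratios of 1 library each, bars exact 95% counting intervals, filled points the genes called at 2-fold and dotted lines 2-fold either way. In ACE+ cells all ratios lie between 0.662 and 1.56, and in CD74+ cells Cdc6 (3.51) and Ttk (2.55) stand to the right and Bub1 (0.445) to the left; Tk1 is left out of the right panel for its low level.

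The responses of the subsets can be set side by side, since they share no library. Of the 41 genes tested in both, 19 changed in the same direction, and Pearson's r across genes was -0.09, against 0.06 over the 13129 genes tested in both. Intervals that excluded 1 in the same direction in both subsets were found for 8 genes, against 20.5% of all genes tested in both. Lower in both were Ccnb1, Bub1b, Kif11 and Cenpe, and higher in both were Cdc20, Rrm2, E2f1 and Prc1. Intervals that excluded 1 in opposite directions were found for 10 genes, against 15.3% of all genes. Of these, 8 were higher in ACE+ and lower in CD74+ cells (Mki67, Top2a, Ccne2, Aurka, Bub1, Kif20a, Cenpf and Cdca8) and 2 the reverse (Pcna and Rrm1). Of Kif20a, 29.3% of the exons also lie in Cdc23.

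An additive fit over the 4 libraries, with subset and treatment as terms, tested the periostin effect common to both subsets. It leaves 1 residual degree of freedom and takes any difference between the responses as error. In edgeR that error was pooled over genes, as the median prior degrees of freedom were infinite. A difference between the responses of a single gene thus adds little to the p-value of that gene. With edgeR's quasi-likelihood test and Benjamini-Hochberg adjustment, 14 of 13129 genes (0.107%) passed an adjusted p of 0.05, and none of the 41 genes did. At an unadjusted p under 0.05, which 6.67% of all genes reached, there were 2 of the 41, Kif11 (log2 change -0.66, adjusted p = 0.673) and Ccnb1 (-0.65, adjusted p = 0.731). With DESeq2's Wald test, 2 genes passed over all and 0 of the 41, with 0 at an unadjusted p under 0.05.

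The second pair of comparisons asks how CX3CR1+CD74+ cells differed from CX3CR1+ACE+ cells. With vehicle, Mki67, Gins2 and Aurka were at least 2-fold higher and Tk1 at least 2-fold lower in CD74+ cells, 3 and 1 of 42. Over all 13393 genes tested, 3.64% were 2-fold higher and 7.73% 2-fold lower. The level was higher in 29 of the 42 genes, with a median log2 difference of 0.27 against 0.00 over all genes. Of all genes tested, 49.9% were higher. With 5 CPM added in place of 1, Mki67 alone of the 4 genes stayed past 2-fold. The mitosis sum was 386 CPM in ACE+ and 499 CPM in CD74+ cells, with 17 of 22 genes higher, and the replication sum without Pcna 449 and 473 CPM, with 9 of 17 genes higher.

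Mki67 had the largest increase from ACE+ to CD74+ cells, 3.16-fold (2.96 to 3.375) with vehicle, its gene lying on the minus strand of chromosome 7 from 135689784 to 135716361. Its level increased from ACE+ vehicle over ACE+ periostin and CD74+ periostin to CD74+ vehicle, and the counting intervals of neighbours in that order did not overlap. Relative to Mcm6, Mki67 stood at 1.06, 1.16, 3.35 and 2.07 in the order of libraries used above. Aurka differed 2.23-fold (1.85 to 2.70). Gins2, a subunit of the GINS complex, stood at 3.83, 5.15, 10.5 and 11.8 CPM, a difference of 2.75-fold (2.04 to 3.74) with vehicle. The exons of Gins2 overlap Gse1 on the other strand over 67.3% of their length, and the sources used here do not say whether reads were counted by strand, so its reads cannot be told apart from those of Gse1.

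Plk1 (2.04-fold, 1.73 to 2.40) and Cenpe (1.97-fold, 1.69 to 2.29) came next, just under the call. Tk1, which encodes cytosolic thymidine kinase, stood at 5.33 and 5.35 CPM in ACE+ and at 0.538 and 0.359 CPM in CD74+ cells, a ratio of 0.101 (0.0446 to 0.201) with vehicle. Cdc6 had a ratio of 0.472 (0.325 to 0.676), just under the call. Lower ratios were also found for Mcm7 (0.687, 0.615 to 0.767), Mcm2 (0.698, 0.608 to 0.801) and Ccnb2, a cyclin B gene (0.740, 0.631 to 0.867).

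With periostin, Gins2, Ccne1 and Pcna were at least 2-fold higher in CD74+ cells and Tk1, Ccne2 and Cenpf at least 2-fold lower, 3 and 3 of 42. Over all 13681 genes tested, 6.94% were 2-fold higher and 10.4% 2-fold lower. Pcna stood at 128 CPM in ACE+ and 262 CPM in CD74+ cells, a ratio of 2.04 (1.94 to 2.15), on the minus strand of chromosome 2 from 132249162 to 132253314. Gins2 differed 2.30-fold (1.77 to 2.999) and Ccne1 2.49-fold (1.68 to 3.71). The G1/S cyclins again parted, Ccne2 having a ratio of 0.284 (0.182 to 0.427). Cenpf had a ratio of 0.451 (0.346 to 0.583) and Tk1 of 0.0671 (0.0180 to 0.177), on 4 reads in CD74+ cells.

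Other differences with periostin lay under 2-fold on the scale used. Cdc6 had a ratio of 2.03 (1.53 to 2.69) and Rrm1, the large subunit of ribonucleotide reductase, of 1.77 (1.60 to 1.95). Bub1 (0.604, 0.462 to 0.784) and Ccnb2 (0.640, 0.536 to 0.761) were lower in CD74+ cells. Cdc6 and Bub1 thus changed sides between the treatments: Cdc6 was lower in CD74+ cells with vehicle and higher with periostin, and Bub1 the reverse. The level was higher in CD74+ cells for 27 of the 42 genes, against 50.2% of all genes tested. For 22 of the 42 it was higher with either treatment, against 4410 of the 13237 genes tested in both comparisons. With the trend of change on gene length removed, the log2 differences of Pcna (0.96), Ccne1 (0.95) and Cenpf (-0.67) fell short of 2-fold and that of Cdc6 (1.02) passed it. With 5 CPM added in place of 1, Pcna alone of the 6 genes stayed past 2-fold.

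**Figure D4:**
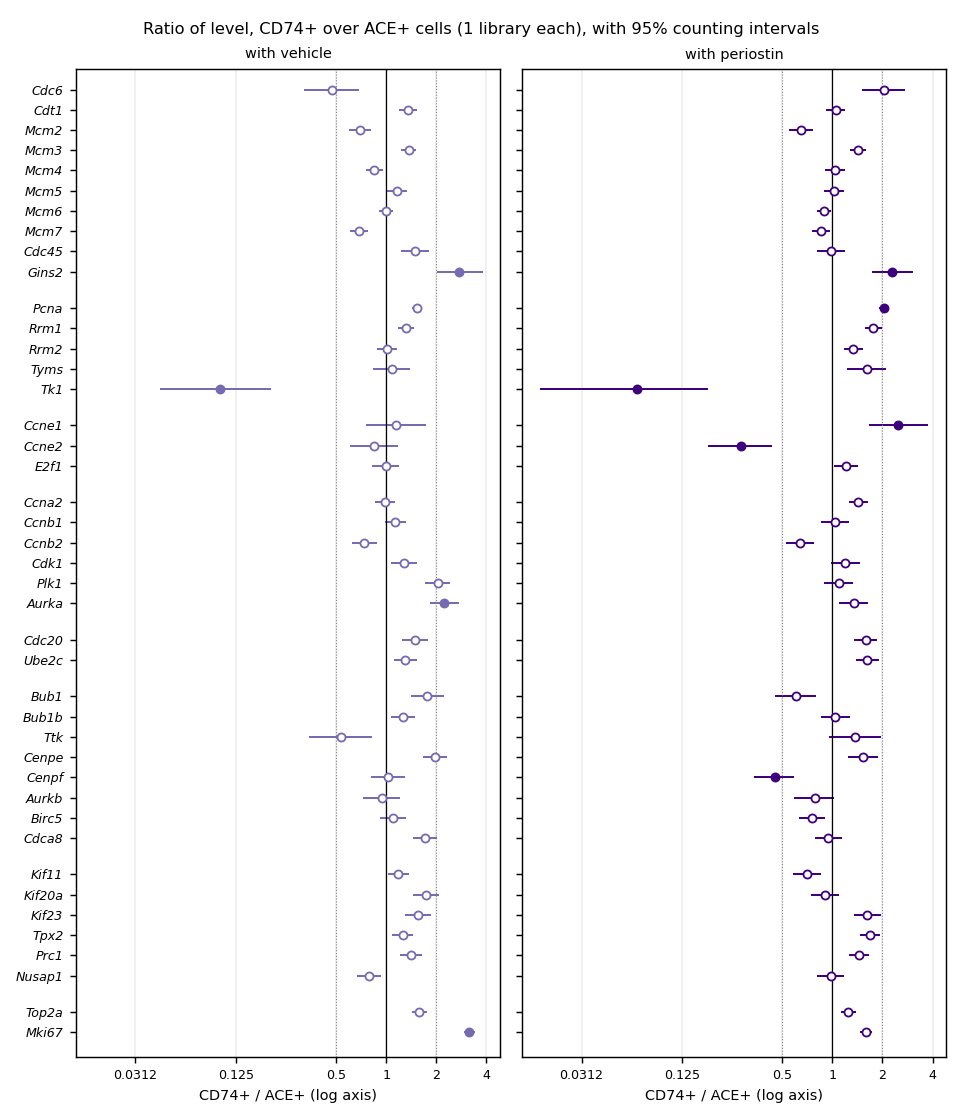
Ratio of level in CD74+ over ACE+ cells for each gene, on a log axis, with vehicle (left) and with periostin (right); points are ratios of 1 library each, bars exact 95% counting intervals, filled points the genes called at 2-fold and dotted lines 2-fold either way. Tk1 stands far to the left in both panels (0.101 and 0.0671), Gins2 to the right in both (2.75 and 2.30), and Mki67 is at 3.16 with vehicle and 1.59 with periostin.

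In the additive fit, the subset effect common to both treatments was called for 2018 of 13129 genes (15.4%) and for 2 of the 41 genes tested. With edgeR's quasi-likelihood test and Benjamini-Hochberg adjustment, these were Mki67 (log2 difference 1.17, adjusted p = 8.7e-08) and Pcna (0.82, adjusted p = 0.000209). DESeq2's Wald test called the same pair, with adjusted p of 0.000116 for Mki67 and 0.00115 for Pcna. Both genes were higher in CD74+ cells with either treatment. For Mki67 the ratio was 3.16 with vehicle and 1.59 with periostin. That departure from the additive terms adds little to its edgeR p-value, whose error was pooled over genes. At an unadjusted p under 0.05 there were 12 of the 41, near the 26.4% of all genes, and Rrm1 (0.61, adjusted p = 0.0511) and Gins2 (1.33, adjusted p = 0.0645) came nearest to the threshold. Beside these, the erythroid, B lineage, osteoblast and neutrophil sums were lower and the chondrocyte sums higher in CD74+ cells with either treatment, and the part of those cells in the differences was not tested.

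**Figure D5:**
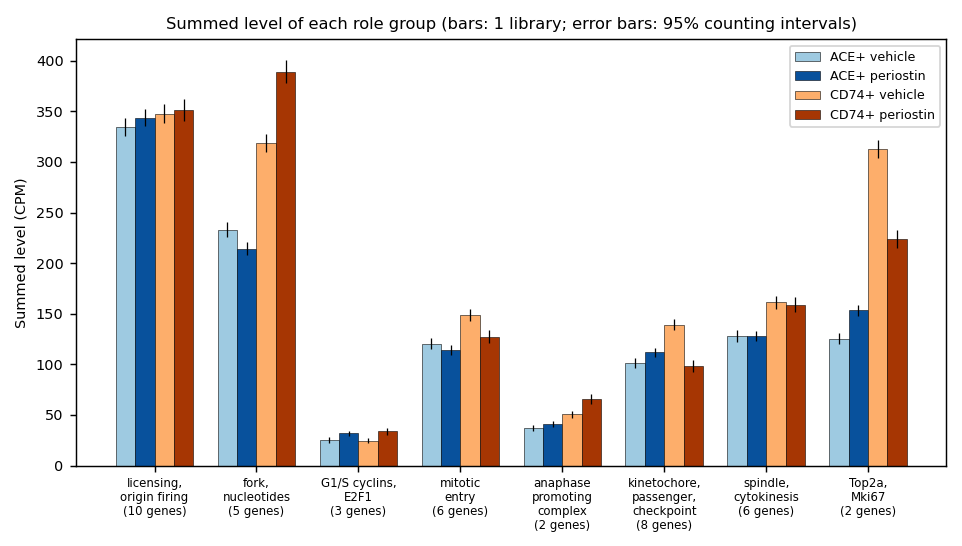
Summed level of each role group in the 4 libraries, in CPM, with exact 95% counting intervals as error bars and the number of genes under each group. The licensing group is level at 334 to 351 CPM, the fork and nucleotide group is highest in CD74+ periostin (389 CPM), and the kinetochore group (139 CPM) and Top2a with Mki67 (313 CPM) are highest in CD74+ vehicle.

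Regulators of the cell cycle outside the 42 genes, among them D cyclins and CDK inhibitors, also differed between the subsets. In the same fit 12 of 40 were called, 4 higher and 8 lower in CD74+ cells, against the 15.4% of all genes. Ccnd3, a D cyclin that couples growth signals to the cell cycle, stood at 218, 216, 101 and 133 CPM in the same order (edgeR adjusted p = 4.1e-05). Ccnd2 stood at 34.6, 32.8, 19.1 and 4.66 CPM, lowest in CD74+ periostin (edgeR adjusted p = 1.7e-06). Ccnd1, which was not called, stood at 29.9, 27.9, 21.1 and 16.6 CPM. The CDK inhibitors parted: Cdkn1a, the p53 target p21, was higher in CD74+ cells (131, 159, 225 and 254 CPM, edgeR adjusted p = 0.00115), and Cdkn1b, p27, was lower (120, 94.0, 51.5 and 45.5 CPM, edgeR adjusted p = 3.4e-06). E2f2 was lower in CD74+ cells, at 75.3, 71.5, 28.2 and 32.7 CPM (edgeR adjusted p = 2.9e-06). Myc lay between 44.8 and 50.1 CPM in all 4 libraries.

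Foxm1 and Mybl2 encode factors that act with the complex bound at the CHR, and their levels differed in opposite directions with periostin. Foxm1 stood at 11.7, 15.9, 26.2 and 13.6 CPM, with a ratio of 1.36 (1.13 to 1.64) in ACE+ and 0.521 (0.430 to 0.628) in CD74+ cells. Mybl2, also called B-Myb, stood at 6.77, 4.22, 5.98 and 12.4 CPM, with ratios of 0.623 (0.464 to 0.834) and 2.07 (1.59 to 2.71). Neither reached 2-fold on the log2(CPM + 1) scale in either response. Of the other replication genes, Timeless, which protects stalled forks, rose 2.90-fold (2.22 to 3.84) in ACE+ cells and fell to 0.355-fold (0.224 to 0.544) in CD74+ cells. Gins1, a partner of Gins2 in the GINS complex, rose 3.001-fold (2.01 to 4.55) in CD74+ cells, and Orc6 of the origin recognition complex rose 2.20-fold (1.85 to 2.62). In those cells Rfc5, of the clamp loader for PCNA, fell to 0.225-fold (0.152 to 0.323) and Pola2, of DNA polymerase alpha, to 0.295-fold (0.235 to 0.368). Counts at 2-fold were 3 higher and 4 lower of 44 other replication genes, 3 and 7 of 66 other mitosis genes, and 2 and 2 of 40 regulators in CD74+ cells, with 6.69% and 5.25% of all genes.

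Replication-dependent histone genes, whose transcripts mostly lack a poly(A) tail, were higher with periostin in 26 of the 35 that passed in CD74+ cells. Their median log2 change there was 0.39, whereas over all genes 51.4% were higher, with a median of 0.02. In ACE+ cells 6 of 19 were higher, with a median of -0.23, against 50.6% and 0.00 over all genes. The sets that passed thus differ between the subsets. Most of these genes lay near the filter of 1 CPM. The median listed histone gene stood at 0.690, 0.785, 1.46 and 1.79 CPM, in the order of libraries used above. Hist1h1c, the highest, stood at 259, 210, 161 and 172 CPM. Across all genes the change in CD74+ cells was lower for longer genes (Spearman's rho -0.32). The part of length in the histone change was not tested. Near-identical histone copies share reads, so single genes are uncertain. In the authors' deposited table of annotation terms for genes they took as higher with periostin, 7 of the 42 genes appear for CD74+ cells (Ccne1, Cdc20, Cdc6, E2f1, Rrm2, Tpx2 and Ttk) and 2 for ACE+ cells (Ccne2 and Cenpf). The share of all genes that the authors took as higher was not worked out, so these counts have no background. The authors' list holds genes under the 2-fold call used here, such as Cdc20 (1.43-fold), Tpx2 (1.47-fold), Rrm2 (1.49-fold) and E2f1 (1.54-fold). By that call, 2 of 41 genes were higher in CD74+ cells, against 6.69% of all genes. In ACE+ cells 0 of 42 were higher, against 1.47% of all genes. The authors' deposited table gives the keyword Cell cycle 88 genes in CD74+ cells, with a p-value of 0.00789 and a Benjamini adjusted p-value of 0.131. Kinetochore (18 genes), Mitosis (39) and Cell division (52) are also listed there, with the authors' Benjamini adjusted p-values of 0.283, 0.318 and 0.354. These terms cover genes taken as higher, whereas 16 of the 22 mitosis genes described here were lower. None of the 18 Kinetochore genes is among the 42. The table gives the term DNA replication-dependent nucleosome assembly 14 genes in CD74+ cells, none of them among the 42. For that term the authors' Benjamini adjusted p-value was 0.0385 in CD74+ cells and 0.976 in ACE+ cells.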

How the data were processed

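RNA sequencing libraries of 4 groups were used, 1 library per group, taken from the sample labels. Per the labels' protocols, total RNA went into a TruSeq kit, and per the submitters' processing notes reads were aligned with HISAT2 to GRCm38. The sources used here do not name the counting tool, its use of strand or the annotation. The authors deposited, for each subset, a signal per gene and library, which is a read count after division by a size factor. Dividing each column by its smallest step gave whole reads for 100% of values (to within 0.001 read), and these reads were used. The fixed design had assumed counts. The authors' deposited log2 fold changes were not used. Annotation sheets deposited by the authors give p-values and a fold enrichment ratio per term.

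The signal was put on a scale on which the 4 libraries sum to 1000000 on average, called CPM. A gene passed when either library of a comparison reached 1 CPM, the change was log2(CPM + 1) between libraries, and a call was 2-fold. Intervals of ratios are exact 95% conditional binomial and those of sums exact Poisson intervals, and both cover counting error only. A count of 0 allows 3 reads, which is 0.147 to 0.269 CPM. The additive fits on recovered reads used edgeR 4.0.16 (TMM factors, R 4.3.3) with DESeq2 1.42.0 as an alternative, over 13129 genes. With 1 library per group, p-values measure the spread left after the additive terms, which may be technical. In edgeR that spread was pooled over genes (infinite prior degrees of freedom at the median) and not taken from each gene alone. Scripts were tested on simulated data. Coordinates, exon overlaps and GC content came from GENCODE mouse M21, promoter sequences from RefSeq on GRCm38.p6.

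The 42 genes and all other lists were chosen with earlier results of these data known. In each comparison the 5 genes with the largest increase and the 5 with the largest decrease among those that reached 5 CPM in either library were named with their ratio, plus, of the other lists, up to 2 genes in each direction and a fixed set of regulators. The genes whose promoter stretches are printed were chosen after their values were seen.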

Additional observations from a re-analysis of the deposited data

Results flagged for a closer look

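For 10 of the 42 genes the periostin responses of the subsets went in opposite directions, each beyond its counting interval. The same held for 15.3% of all 13129 genes tested in both subsets. With 1 library per group the difference between the responses was not tested. The log2 difference of the responses, CD74+ minus ACE+, was -0.99 for Mki67, -0.34 for Top2a, -1.57 for Ccne2, -0.73 for Aurka, -1.55 for Bub1, -0.93 for Kif20a, -1.19 for Cenpf and -0.86 for Cdca8, all with a higher level in ACE+ and a lower level in CD74+ cells after periostin. It was 0.42 for Pcna and 0.42 for Rrm1, with the opposite signs. Of the 22 mitosis genes this leaves 5 with opposite responses, and of the 18 replication genes 3, beside Mki67 and Top2a. These differences keep the trend on gene length, and Top2a, Mki67 and Cenpf are the longest of these genes. In CD74+ cells Top2a had a log2 change of -0.155, against a median of -0.21 over all genes of its length. Its lower level there thus does not stand apart from that trend. Mki67 had -0.62 against -0.28, and Cenpf -0.60 against -0.35.

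Among named genes outside the 42, the same held for 8. These had been named for the largest changes with periostin or as fixed regulators, a choice that favours such cases. Their count thus cannot be set against the 15.3% of all genes. The log2 difference was -3.03 for Timeless, -1.39 for Foxm1 and -1.33 for Cdkn1c, a CDK inhibitor. It was 1.73 for Mybl2, 1.58 for Cks1b, which encodes a CDK subunit, and 2.81 for Cenph, a kinetochore gene. For the histone genes Hist2h3c1 and Hist1h1c it was 1.44 and 0.40, again with no test of the difference.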

How the results depend on the processing

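Counts of genes past 2-fold depended on the pseudocount. With 5 CPM added, the counts in the CD74+ response became 0 higher and 0 lower, in the vehicle comparison of the subsets 1 and 0, and in the periostin comparison 1 and 0. With 0.1 CPM added, 2 genes were lower in the CD74+ response (Kif11 joining Bub1) and 2 in the vehicle comparison (Cdc6 joining Tk1). Filters, TMM scaling and removal of a length or GC trend kept every count within 1.5 times, although removal of the length trend ended the calls of Pcna (0.96), Ccne1 (0.95) and Cenpf (-0.67) in the periostin comparison of the subsets and added Cdc6 (1.02). The count of 0 in ACE+ cells held under all 7 alternatives. Median changes of the genes stayed between 0.04 and 0.10 in the ACE+ response, -0.09 and -0.06 in the CD74+ response, 0.24 and 0.32 in the vehicle comparison and 0.15 and 0.20 in the periostin comparison. Of 280 recomputed changes of named genes, 261 stayed on their side of 2-fold, 14 dropped under it, 5 passed it and 0 changed sign. The split by role in CD74+ cells, recomputed after seeing the data, gave 16 mitosis genes lower under every alternative and 11 or 12 replication genes higher. For the common periostin effect, DESeq2 called 2 genes and the fit without a filter 5, in place of 14, and none of the replication and mitosis genes under any of the 3 alternatives. The cause was not tested. For the subset effect Rrm1 joined Mki67 and Pcna with median-of-ratios size factors (adjusted p = 0.0449), and Tk1 without the filter (adjusted p = 0.00112). No paired analysis was possible because each group is 1 library, and for the same reason no replicate could be left out. Depth limits the low genes most: Tk1, Cdc6, Ttk and the cyclin E genes rest on 4 to 174 reads a library.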
